A study of Mus musculus with 6 samples.

Results

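The nuclear hormone receptors described here were 46 listed mouse genes of the superfamily, chosen by gene symbol, and all 46 were present among the 45583 genes of the count table. RNA sequencing read counts were available for the cerebral cortex of 6 male fetuses, 3 exposed to vehicle and 3 to bisphenol A (BPA) through the dam. BPA is a plastic monomer with weak estrogenic activity. Dams received BPA at 50 µg/kg, or peanut oil as the vehicle, from GD10.5 to GD14.5 (gestational day), and cortex was taken at GD15.5. All fetuses belonged to the Cyp19-EGFP strain, in which a bacterial artificial chromosome carries the aromatase gene with a fluorescent reporter, and both groups were labelled wild type and positive for the male-determining gene Sry. Whether fetuses labelled wild type carried the reporter is not stated. The study's methods name FVBN dams injected under the skin, with BPA dissolved in ethanol and peanut oil. Litter was not given, so that p-values measure the spread between these fetuses, some of which may share a dam. Each fetus gave 1 library, and libraries are named below by group and number.

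Nuclear receptors are transcription factors that bind DNA through a zinc finger domain and, in many members, a small lipid-soluble ligand such as a steroid, thyroid hormone or retinoic acid. Steroid receptors bind DNA mostly as homodimers, whereas thyroid hormone, retinoic acid and several lipid receptors pair with a retinoid X receptor on repeats of a short half-site. Orphan receptors such as the COUP-TF and NR4A groups act without a known hormone, and COUP-TF members are known for patterning the areas of the developing cortex.

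Of the 46 receptors, 42 matched 63 promoters in the RefSeq annotation of build GRCm38.p6. A pair of these promoters is shown, that of Rxrg because it had the smallest p-value of the receptors and that of Rarb because this gene, the beta retinoic acid receptor, is a known target of retinoic acid itself. The minus-strand promoter of Rarb at chr14:16575477-16575726 holds the bases GGTTCA and AGTTCA separated by 5 bases, given in capitals, which began 53 bases before the start site. Rxrg is the gamma retinoid X receptor. Its plus-strand promoter at chr1:167618015-167618264, of the later of its annotated starts, holds AAAGGTCA, a half-site preceded by A bases, given in capitals and beginning 90 bases before the start site.
Rarb: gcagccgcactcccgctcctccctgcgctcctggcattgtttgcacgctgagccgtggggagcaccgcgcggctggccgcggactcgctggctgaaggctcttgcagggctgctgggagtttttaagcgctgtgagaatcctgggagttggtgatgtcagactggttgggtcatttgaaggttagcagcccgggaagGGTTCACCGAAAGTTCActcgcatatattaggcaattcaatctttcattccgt
Rxrg: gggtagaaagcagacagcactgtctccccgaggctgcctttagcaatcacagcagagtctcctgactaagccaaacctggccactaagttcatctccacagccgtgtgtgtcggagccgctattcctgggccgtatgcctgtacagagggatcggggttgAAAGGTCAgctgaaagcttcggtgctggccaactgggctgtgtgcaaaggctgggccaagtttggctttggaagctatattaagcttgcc
On either strand, the Rarb repeat was present in 2 of 32851 promoters of 300 bases (0.00609%), of which Rarb was the only receptor. The longer half-site of Rxrg was present in 1.51% of promoters, and among the receptors in Rxra and Rxrg. The plain half-site AGGTCA, which the longer one contains, was present in 16.3% of promoters and in those of 11 receptors. No receptor promoter held a full estrogen response element made of GGTCA and TGACC separated by 3 bases, which 0.07% of all promoters did. A direct repeat of AGGTCA with 4 bases between the copies was also in no receptor promoter, and in 0.0152% of all. Such matches describe letters in a short window and do not show binding.

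Total counts were 5030652 to 7180835 in vehicle libraries and 3444601 to 6426857 in BPA libraries, and 3 counts corresponded to 0.422 to 0.875 CPM, the counts scaled to a common library size. Choroid plexus markers, which mark tissue next to the cortex, were high in vehicle 2 and BPA 2, where 10 genes summed to 244 and 383 CPM, against 26.2 to 28.3 CPM in the other libraries. Markers of the dorsal pallium, the origin of cortical excitatory neurons, were all 15 present in every library and summed to 4820 to 5977 CPM. In BPA libraries 12 of them were higher and 3 lower (20%, against 49.5% of all genes tested), with a median log2 fold change of 0.06. For each of the 15 the groups overlapped. Markers of the ventral telencephalon, which borders the cortex, summed to 1435 to 1695 CPM in vehicle and 1247 to 1389 CPM in BPA libraries. Of the 20 genes, 13 were lower without overlap between the groups, as were 3.56% of all genes tested. These markers were listed with earlier results of these data known, so that the share is a description and no test. None of the 20 ventral genes was at 0, and 19 were over 3 counts in every library. Nkx2-1 averaged 35.9 ± 8.79 CPM in vehicle and 14.8 ± 5.48 CPM in BPA libraries (SD, n = 3). The median log2 fold change of the 20 was -0.30, a smaller difference, so Nkx2-1 was not typical of the list. Of markers of thalamus and hypothalamus, blood cells, vessels and meninges, and microglia, 5, 6, 13 and 10 genes were tested. Of these, only 1 blood gene had an unadjusted p under 0.05, 16.7% of the 6, against 2.2% of all genes tested. In bulk cortex, fewer cells of a type and less RNA per cell cannot be told apart.

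Which receptors were present in fetal cortex was asked first, with more than 3 counts in a library taken as detection. In every library, 29 of the 46 receptors were detected, with 11 to 6039 counts in a library. At 3 counts or fewer in every library were 12 receptors, and the other 5 crossed that level in some libraries. Together the receptors took 0.216% of all counts, and Thra alone took 36.7% of the receptor counts. Of the 29 detected receptors, 22 averaged over 10 CPM in both groups.

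Levels of different genes were compared per kilobase of exon. Thra, the alpha thyroid hormone receptor, had the highest level at 173 CPM per kilobase over 6 libraries, with a range of 154 to 185. Nr2f1, which encodes COUP-TFI, was second at 61.8 CPM per kilobase, with a range of 49.6 to 70.3. Both ranges stood clear of each other and of the rest. The next 8 were Rxrb (23.4), Nr1h2 (22.6), Nr2f2 (20.1), Nr2e1 (19.9), Nr4a2 (15.4), Nr4a3 (14.54), Rxrg (12.5) and Nr2c2 (8.76 CPM per kilobase). Each neighbor from Rxrb down to Esrra, at 8.72 CPM per kilobase, overlapped the one before it in range, so the order between neighbors is not resolved. Genes further apart could be clear of each other, as Rxrb, at 21.7 to 25.2, was of Nr4a3, at 10.4 to 19.5 CPM per kilobase. At the other end, Pgr was the lowest of the 29 at 0.356 CPM per kilobase, below Thrb (0.414) and Rora (0.516).

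**Figure D1:**
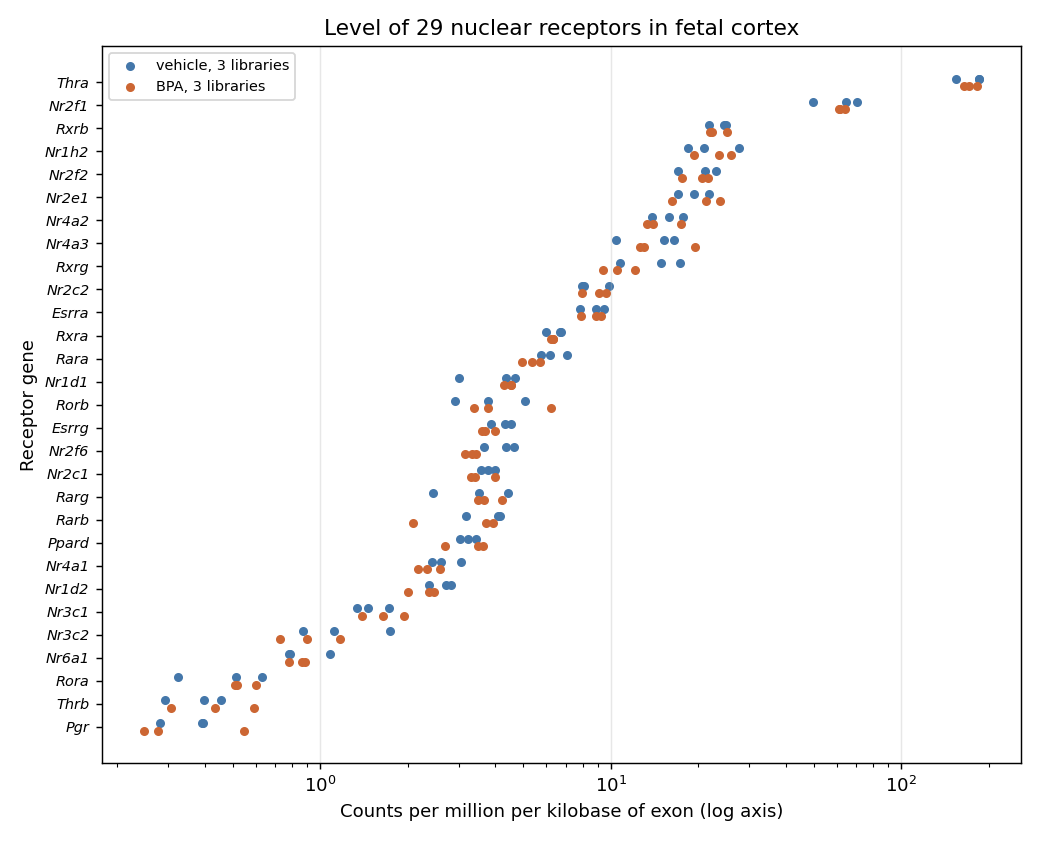
Level of the 29 detected receptors in CPM per kilobase of exon (log axis), 1 point per library, with vehicle in blue and BPA in orange. Thra at 154 to 185 and Nr2f1 at 49.6 to 70.3 CPM per kilobase stand apart from the remaining receptors, and blue and orange points intermix for nearly every gene.

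Within families, 1 member often carried most of the level. Thra was 99.8% ± 0.0694 (SD, n = 3) of the thyroid hormone receptor level per kilobase in vehicle libraries. Rorb, a retinoid-related orphan receptor of cortical layer neurons, was 89.0% ± 0.986 (SD, n = 3) of the ROR level there, and Nr2f1 was 71.3% ± 0.713 (SD, n = 3) of the COUP-TF level. The retinoid families were more mixed. Rara, Rarb and Rarg held 46.5%, 28.3% and 25.2% of the retinoic acid receptor level in vehicle libraries, and Rxra, Rxrb and Rxrg held 14.6%, 53.5% and 31.9% of the retinoid X receptor level. In BPA libraries the same 6 shares were 43.4%, 25.8% and 30.8%, and 15.7%, 57.7% and 26.6%. For 13 such shares vehicle and BPA were compared by an exact two-sided permutation test, which with 3 against 3 cannot go below 0.1 and so could not reach 0.05 for any share. Exact p ranged from 0.2 to 1, and from 0.578 to 1 after Benjamini-Hochberg adjustment over the 13.

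The classical estrogen receptors were among those not detected. Esr1, the alpha receptor, had 1, 1 and 2 counts in vehicle libraries and 0, 2 and 3 in BPA libraries. Its 9 counts over all libraries made 0.258 CPM, with an exact Poisson 95% interval of 0.118 to 0.489. Esr2, the beta receptor, had 1, 1 and 0 counts in vehicle and 1, 3 and 1 in BPA libraries, which made 0.200 CPM (interval 0.0806 to 0.413). Such intervals cover counting error only. In CPM every BPA library of Esr2 lay above every vehicle library, at 0.157 to 0.488 against 0 to 0.147, values that rest on 0 to 3 counts a library. In counts the groups were not separate, since BPA 1, BPA 3, vehicle 1 and vehicle 2 each had 1 count. Of the genes with enough counts to test, 3.19% were higher without overlap. Esr1 overlapped between the groups. Neither gene had enough counts for the test, and at this depth a difference could not be established.

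Other receptors at or under 3 counts were mainly those known from liver, gut, fat or gonad. Hnf4a and Hnf4g, which control liver and gut genes, Nr0b2, a bile acid feedback repressor, and Nr2e3, a photoreceptor gene, had 0 counts in all 6 libraries. For a total of 0 the upper bound of the exact Poisson 95% interval was 0.106 CPM over the 6 libraries. Pparg, the regulator of fat cell formation, had 3 counts in all, Nr1h4, the bile acid receptor, and Nr5a1, the steroidogenic factor, 2 each, and Vdr, the vitamin D receptor, and Nr1i2, the pregnane X receptor, 1 each. Nr1i3, the androstane receptor, had 4 counts. Of its exonic bases, 74.9% are also exon of Tomm40l on the opposite strand, so this count is uncertain.

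The 5 receptors between these groups had few counts as well. Nr1h3, the alpha liver X receptor, was the highest with 7, 7 and 6 counts in vehicle and 7, 11 and 2 in BPA libraries. Ppara, a regulator of fatty acid oxidation, had 2, 7 and 8 against 4, 3 and 2 counts, and Esrrb, an estrogen-related receptor of pluripotent cells, had 4, 4 and 4 against 3, 1 and 2. Nr0b1, known from adrenal gland and gonad, had 16 counts over the 6 libraries and Nr5a2, known from liver, had 14. The vehicle and BPA libraries overlapped in these counts for Nr1h3, Ppara, Nr0b1 and Nr5a2, and for Esrrb each BPA library had fewer counts than each vehicle library, although in CPM the groups overlapped. None of the 17 passed the filter for testing, and no fold is given.

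**Figure D2:**
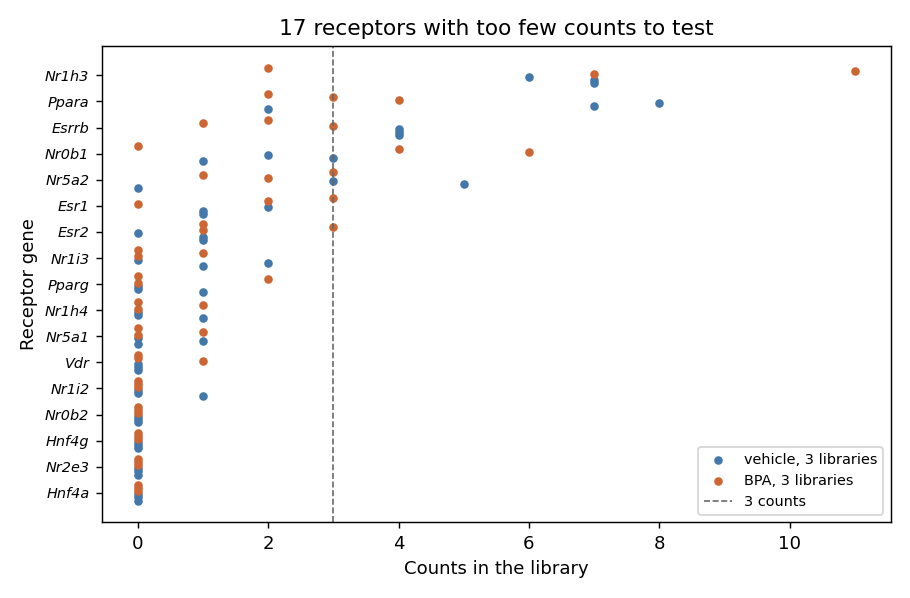
Counts per library (horizontal axis) of the 17 receptors with too few counts to test, 1 point per library, with a dashed line at 3 counts. Esr1 and Esr2 stay at or under 3 counts in each library, and Nr1h3 reaches 11 counts in 1 BPA library.

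Whether prenatal BPA changed receptor expression was asked with edgeR's quasi-likelihood test over 13741 genes. No receptor passed an adjusted p of 0.1, nor did any gene (0%), and the smallest adjusted p over all genes was 0.251. DESeq2, limma-voom and edgeR's exact test also called 0 receptors. Of the 29 receptors tested, 1 (3.45%) had an unadjusted p under 0.05, against 302 genes (2.2%) of all tested. Receptors with every BPA library below every vehicle library numbered 2 (6.90%), against 3.56% of all genes, and those with every BPA library above numbered 0, against 3.19%. With 29 receptors, each of these shares lies within about 1 receptor of the share of all genes. In direction, 17 receptors were lower and 12 higher in BPA libraries, with a median log2 fold change of -0.03 and a range from -0.43 to 0.20, where the median of all genes was 0.0016 and 49.5% were lower.

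The width of the intervals came from the spread between these fetuses. Litter was not given, so the intervals do not cover spread between dams and set no bound on the effect of BPA there. For 28 of the 29 receptors the 95% interval of the fold change lay within 2-fold either way, and for 20 it lay within 1.5-fold. The exception was Nr3c2, whose interval reached past a 2-fold decrease. Coefficients of variation within groups ran from 4.52% to 35.3%, with a median of 13.3%.

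**Figure D3:**
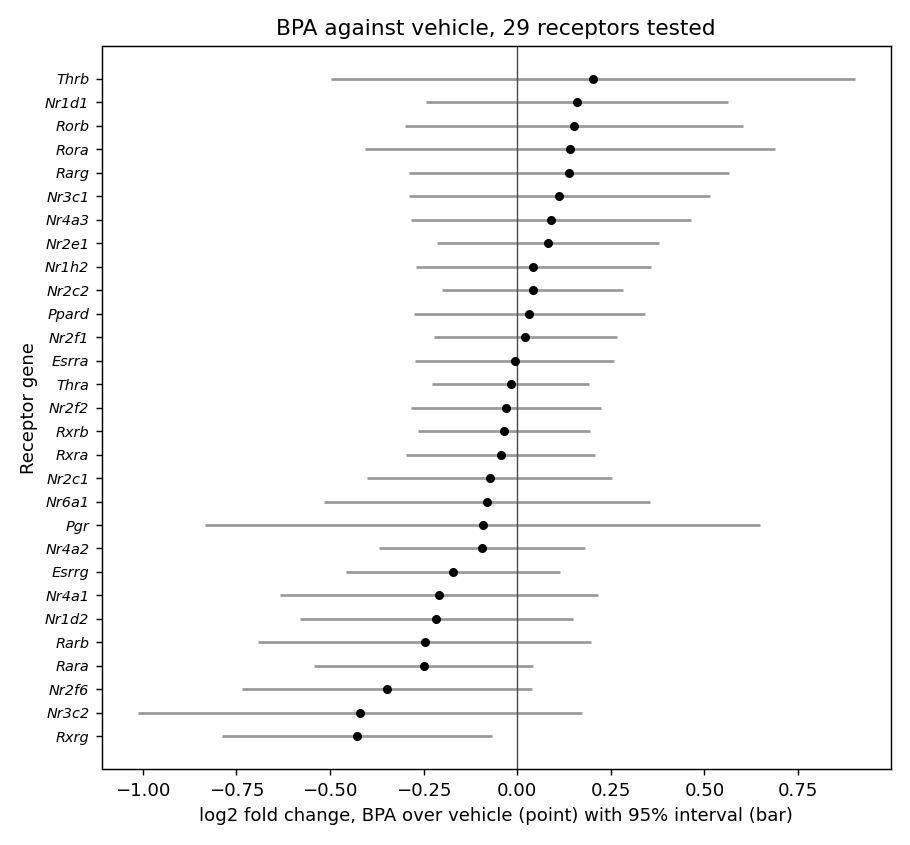
Log2 fold change of BPA over vehicle for the 29 receptors tested, ordered by size, as points with 95% intervals from edgeR's quasi-likelihood fit. Values run from -0.43 for Rxrg to 0.20 for Thrb, and the interval of Rxrg is the one that does not cross 0.

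Of the estrogen-related receptors, which share DNA sites with estrogen receptors but have no known natural hormone, 2 were detected, Esrra at 8.72 and Esrrg at 4.0021 CPM per kilobase. Esrra, a regulator of mitochondrial genes, was at 34.4, 41.5 and 39.0 CPM in vehicle libraries and 40.7, 34.8 and 39.1 CPM in BPA libraries. Its group means, 38.3 ± 3.61 and 38.2 ± 3.05 CPM (SD, n = 3), nearly coincided, and the log2 fold change was -0.0072 (SE 0.125). Esrrg, to which BPA is known to bind, was at 26.8, 23.9 and 28.2 CPM in vehicle and 22.5, 22.9 and 24.8 CPM in BPA libraries. The highest BPA library lay between the vehicle libraries, and the log2 fold change was -0.17 (SE 0.134, 95% interval -0.46 to 0.11), with p = 0.219 by edgeR's quasi-likelihood test and 0.2 by the exact permutation test.

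The detected steroid receptors Nr3c1, Nr3c2 and Pgr averaged 1.58, 1.09 and 0.356 CPM per kilobase, all below the estrogen-related receptors. Nr3c1, the glucocorticoid receptor, was at 13.2, 10.3 and 11.2 CPM in vehicle and 10.7, 12.7 and 14.9 CPM in BPA libraries, and differed by 0.11 (SE 0.189) on the log2 scale. Pgr, the progesterone receptor and a known estrogen target, was at 3.38, 2.39 and 3.35 CPM in vehicle and 2.36, 2.11 and 4.67 CPM in BPA libraries. BPA 3 was the highest and BPA 2 the lowest of the 6, so the groups overlapped throughout. Its mean CPM was nearly equal at 3.04 in vehicle and 3.05 in BPA libraries, while the fitted log2 fold change was -0.09 (SE 0.349), so that its direction is not resolved. Nr3c2, the mineralocorticoid receptor, was at 7.21, 5.63 and 11.2 CPM in vehicle and 4.71, 5.85 and 7.59 CPM in BPA libraries. Its log2 fold change of -0.42 (SE 0.279, 95% interval -1.01 to 0.17) had p = 0.151 by the same edgeR test and 0.5 by the exact permutation test. Its size rested on single libraries, since it was -0.13 without vehicle 3, -0.26 without BPA 1 and -0.63 without vehicle 2, where alone of these 3 the unadjusted p was under 0.05.

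Thyroid hormone receptor levels did not separate the groups. Thra was at 709, 850 and 852 CPM in vehicle and 755, 841 and 785 CPM in BPA libraries, and its log2 fold change was -0.02 (SE 0.0986, 95% interval -0.23 to 0.19). Thrb, the beta receptor, ranged from 2.17 to 4.40 CPM and differed by 0.20 (SE 0.330) on the log2 scale, the largest standard error among the receptors higher in BPA libraries. Thra overlaps Nr1d1, the REV-ERB alpha gene, by 263 exonic bases on the opposite strand, which is 5.7% of Thra and 8.55% of Nr1d1. Whether counting used strand is not stated, so reads there may have been counted for either gene or for neither.

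Among retinoid receptors, which mediate retinoic acid signals in brain patterning, Rxrg had the smallest p. Rxrg lies at chr1:167598384-167639623 (GRCm38, plus strand), and its level was 34.1, 24.6 and 39.8 CPM in vehicle libraries and 21.7, 24.2 and 27.7 CPM in BPA libraries. BPA 1 and BPA 2 were below all vehicle libraries, whereas BPA 3 lay above vehicle 2. Group means were 32.9 ± 7.68 and 24.5 ± 3.04 CPM (SD, n = 3). The log2 fold change was -0.43 (SE 0.170, 95% interval -0.79 to -0.07), with p = 0.0232 and adjusted p = 0.9998 by edgeR's quasi-likelihood test, and an exact two-sided permutation test of the CPM values gave p = 0.2. Over 15 alternative fits Rxrg stayed lower in each, from -0.60 to -0.27, its unadjusted p was under 0.05 in 12, and its smallest adjusted p was 0.375. Without vehicle 2 the log2 fold change was -0.60, and the unadjusted p was above 0.05 without vehicle 1, vehicle 3 or BPA 1. The ventral telencephalon markers were also lower in BPA libraries, as given above, and their part in the Rxrg difference was not tested.

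The other retinoid receptors had smaller log2 fold changes. Rara, the alpha retinoic acid receptor (chr11:98927818-98974942, plus strand), was at 26.9, 30.8 and 25.0 CPM in vehicle and 21.7, 24.9 and 23.3 CPM in BPA libraries. Every BPA library was below every vehicle library, though BPA 2 and vehicle 3 nearly touched. Its log2 fold change was -0.25 (SE 0.138, 95% interval -0.54 to 0.04), with p = 0.0885 by edgeR's quasi-likelihood test and 0.1, the smallest possible, by the exact permutation test. Rarb, added here after its values were seen, was at 21.5, 16.8 and 21.9 CPM in vehicle and 11.0, 20.6 and 19.5 CPM in BPA libraries, of which only BPA 1 stood below the vehicle range. The log2 fold change of Rarb was -0.25 (SE 0.209), with p = 0.254 by the same edgeR test and 0.5 by the exact permutation test. With vehicle 2 and BPA 2, the libraries high in choroid plexus genes, left out, the log2 fold changes of Rarb and Rxrg were -0.57 and -0.60, both with an unadjusted p under 0.05 and with adjusted p of 0.594 and 0.375 in the edgeR fit. Exons of Top2b on the opposite strand cover 34.1% of Rarb exonic bases, and Top2b itself differed by 0.002 on the log2 scale. Rarg ranged from 10.4 to 18.9 CPM, Rxra from 32.8 to 36.7 CPM and Rxrb from 86.3 to 100 CPM, with overlapping groups in each and log2 fold changes of 0.14 (SE 0.201), -0.04 (SE 0.119) and -0.03 (SE 0.108).

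Lipid and clock receptors overlapped between the groups. Nr1h2, the beta liver X receptor and partner of retinoid X receptors in cholesterol control, was at 61.9, 92.8 and 70.0 CPM in vehicle and 78.8, 86.6 and 65.1 CPM in BPA libraries, a log2 fold change of 0.04 (SE 0.148). Ppard, a fatty acid sensor, was at 20.1 to 27.3 CPM and differed by 0.03 on the log2 scale (SE 0.145). Nr1d1 and Nr1d2, the clock repressors REV-ERB alpha and beta, had log2 fold changes of 0.16 (SE 0.190) and -0.22 (SE 0.171). Their opposing activators Rora and Rorb had 0.14 (SE 0.258) and 0.15 (SE 0.212), and Rorb ranged from 32.2 CPM in vehicle 2 to 68.9 CPM in BPA 3.

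Of the orphan receptors, Nr2f6, which encodes a COUP-TF relative, was the second gene whose groups did not overlap. Nr2f6 (chr8:71374123-71381960, minus strand) was at 10.9, 13.0 and 13.8 CPM in vehicle and 9.42, 9.91 and 10.2 CPM in BPA libraries. Its log2 fold change was -0.35 (SE 0.182, 95% interval -0.74 to 0.04), with p = 0.0746 by edgeR's quasi-likelihood test and 0.1 by the exact permutation test. With 1 library left out it ranged from -0.44 to -0.28, and its unadjusted p was under 0.05 only without vehicle 1. Its count is uncertain, since 54.4% of its exonic bases are also exon of Ocel1 on the opposite strand. Reads there may have been counted for either gene or for neither. Ocel1 had 48 to 95 counts and a log2 fold change of 0.12.

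The abundant orphan receptors did not part the groups. Nr2f1 was at 252, 358 and 327 CPM in vehicle and 327, 314 and 310 CPM in BPA libraries, with the lowest value in vehicle 1. Nr2f2, which encodes COUP-TFII of ventral and caudal cells, was at 147, 198 and 181 CPM in vehicle and 186, 151 and 178 CPM in BPA libraries. Nr2e1, the tailless gene of neural stem cells, was at 71.8, 81.1 and 63.1 CPM in vehicle and 88.4, 78.7 and 60.1 CPM in BPA libraries. For all 3 the BPA libraries fell on both sides of the vehicle mean, and log2 fold changes were 0.02 (SE 0.115), -0.03 (SE 0.120) and 0.08 (SE 0.139). Nr2c2, the testicular receptor 4 gene, was at 119 to 148 CPM over the 6 libraries and differed by 0.04 (SE 0.114) on the log2 scale, with 30.7% of its exonic bases shared with Mrps25 on the opposite strand. Nr2c1, the related testicular receptor 2 gene, and Nr6a1, the germ cell nuclear factor gene, had log2 fold changes of -0.07 (SE 0.154) and -0.08 (SE 0.205).

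The NR4A genes are induced by neuronal activity and stress. Nr4a2, also a neuron identity gene, was at 56.5, 64.2 and 71.8 CPM in vehicle and 56.7, 54.1 and 70.6 CPM in BPA libraries. Nr4a3 was at 62.2, 91.1 and 98.6 CPM in vehicle and 75.5, 78.0 and 117 CPM in BPA libraries, and Nr4a1 was at 7.64 to 10.7 CPM. None of the 3 separated the groups, with log2 fold changes of -0.09 (SE 0.130), 0.09 (SE 0.176) and -0.21 (SE 0.199) for Nr4a2, Nr4a3 and Nr4a1. Of 10 immediate early genes tested, a list of other activity-induced genes, 7 were lower and 3 higher, with a median of -0.03 and 0 genes at an unadjusted p under 0.05 by edgeR's test.

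**Figure D4:**
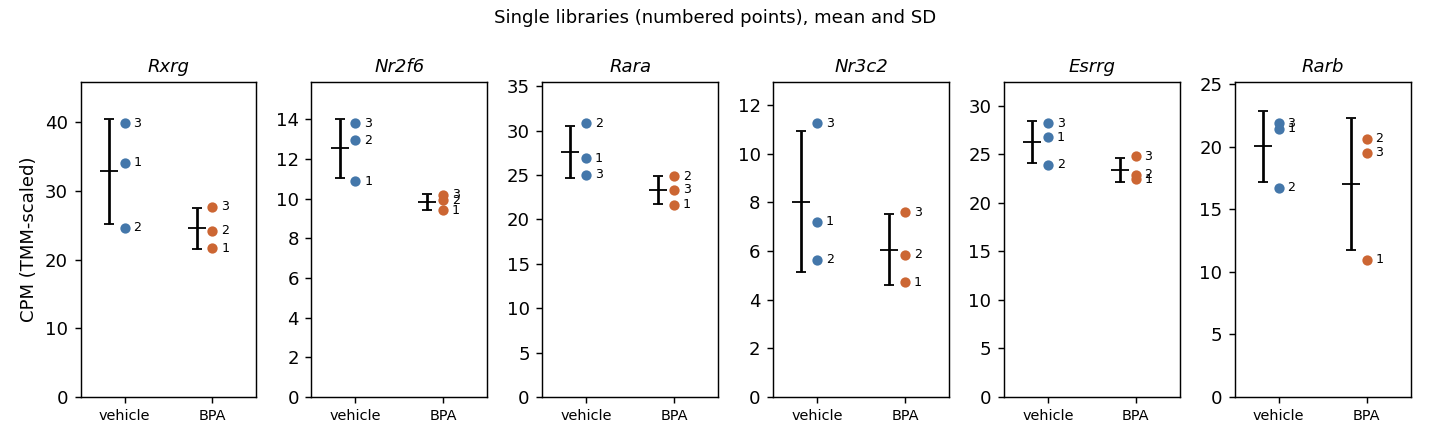
CPM in single libraries (numbered points) of 6 receptors, with the mean and SD of each group (n = 3) and axes starting at 0. For Nr2f6 and Rara every BPA point lies below every vehicle point, whereas for Rxrg, Nr3c2, Esrrg and Rarb at least 1 BPA point lies within the vehicle range.

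Partners of the receptors were read next from gene lists, and CPM of their genes are given without correction for length. Of 27 coactivators tested, which join ligand-bound receptors, 13 were lower and 14 higher in BPA libraries with a median log2 fold change of 0.003, and 0 passed the adjusted threshold or had an unadjusted p under 0.05 by edgeR's quasi-likelihood test. Smarca4 and Arid1a, chromatin remodelers, had the highest CPM, at 898 and 602 CPM. Ppargc1a, a coactivator of mitochondrial genes with Esrra, had the smallest p of the list, at 16.6 ± 2.71 CPM in vehicle and 13.3 ± 0.570 CPM in BPA libraries (SD, n = 3). Its groups did not overlap, which held for 1 of the 27 (3.70%), against 3.56% of all genes tested that were lower without overlap. The log2 fold change of Ppargc1a was -0.31 (SE 0.170), with p = 0.0878 by edgeR's test and 0.1 by the exact permutation test. Of 25 corepressors, which bind receptors without ligand, 12 were lower and 13 higher with a median of 0.002, and Bcl11b, also a cortical neuron gene and a partner of COUP-TF, had both the highest CPM, 676, and the smallest p, at -0.11 (SE 0.0986). Atn1 followed at 514 CPM. Of 16 chaperones that hold steroid receptors ready for hormone, 7 were lower and 9 higher with a median of 0.008. Neither list held a gene with an unadjusted p under 0.05. Hsp90ab1, the constitutive heat shock protein 90, was at 2411 CPM, and Hspa8 ranged from 194 CPM in vehicle 1 to 508 CPM in BPA 2 and differed by 0.30 (SE 0.232) on the log2 scale. This difference of Hspa8 was 0.044 without vehicle 1, 0.049 without BPA 2 and 0.70 without vehicle 2.

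Known target genes were read per receptor group, and 0 passed the adjusted threshold of edgeR's quasi-likelihood test in any list. Of 12 retinoic acid targets 8 were tested, 7 lower and 1 higher with a median log2 fold change of -0.14. Over all genes tested 49.5% were lower. At an unadjusted p under 0.05 was 1 of the 8 (12.5%), against 2.2% of all genes tested. The list was chosen with earlier results of these data known. Meis2, also expressed in the ventral telencephalon, and Rai1 had the highest CPM, at 514 and 251 CPM, with log2 fold changes of -0.15 and -0.08.

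In the other target lists 0 genes had an unadjusted p under 0.05. Thyroid hormone targets were 6 lower and 5 higher, with a median of -0.03, and Sema7a, an axon guidance gene, was at 80.0 CPM. Me1, a lipogenic enzyme, had the smallest p of that list at -0.26 (SE 0.204). Glucocorticoid and mineralocorticoid targets were 7 lower and 3 higher with a median of -0.02, with the salt-regulating kinase Sgk1 at -0.22 (SE 0.169), and the highest CPM were those of Fkbp5, a receptor co-chaperone, at 91.1 CPM and Dusp1, a kinase phosphatase, at 48.9 CPM. Estrogen and progesterone targets were 6 lower and 4 higher with a median of -0.03, the member with the smallest p was Rara itself, and Ctsd and Cited2 had the highest CPM, at 164 and 122 CPM. Liver X targets were 7 lower and 3 higher with a median of -0.11, and the smallest p was that of Scd1, a fatty acid desaturase, at -0.22 (SE 0.142). Srebf1 and Arl4c had the highest CPM of them, at 99.2 and 118 CPM. Targets of the PPAR group were 7 lower and 4 higher with a median of -0.04. Angptl4, a lipase inhibitor, was at 2.79, 3.38 and 3.94 CPM in vehicle and 2.20, 2.76 and 1.46 CPM in BPA libraries (log2 fold change -0.58, SE 0.326). Its groups did not overlap, which held for 1 of the 11 tested (9.09%), against 3.56% of all genes tested that were lower without overlap. Hadha, an enzyme of fatty acid oxidation, was at 115 CPM. Targets of REV-ERB and ROR were 7 lower and 6 higher with a median of -0.01. Dbp, a clock output gene, was at 3.68, 5.21 and 6.11 CPM in vehicle and 3.14, 3.58 and 3.50 CPM in BPA libraries (log2 fold change -0.54, SE 0.281). It was the 1 gene of 13 tested (7.69%) without overlap, against the same 3.56% of all genes. Tef and Cry2, also clock genes, had the highest CPM, at 67.4 and 64.7 CPM. Of the targets of vitamin D, pregnane X, bile acid and androstane receptors, whose receptors were at 4 counts or fewer in total, 2 of 12 could be tested, with Fgf15 at -0.84 (SE 0.671) and Abcb1a at 0.39 (SE 0.341). Fgf15 rested on vehicle 1, at 10.6 CPM against 0.584 to 3.58 CPM in the other libraries, and without it the direction turned.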

How the data were processed

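RNA sequencing counts of 6 fetal cortex libraries were grouped by treatment as labelled, and replicates were numbered in accession order, which pairs no samples. The values used were raw read counts per gene, deposited by the authors without normalization. According to the study's methods and the submitters' processing notes, strand-specific libraries of total RNA were read as single 50-base reads, aligned with TopHat2 2.0.14 to GRCm38 and counted on GENCODE models with featureCounts. StringTie 1.2.4 and edgeR 3.14.2 are also named in the notes. Strand use and the treatment of multiply aligned reads in counting are not given in the sources used here, so overlapping and similar genes are uncertain. Age followed the labels, although 1 passage of the study gives a later day.

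Counts were analysed in R 4.3.3. The filterByExpr function of edgeR 4.0.16 (minimum count 10, minimum total 15) left 13741 genes, TMM factors scaled the libraries, and the quasi-likelihood test compared the groups, with no covariate, Benjamini-Hochberg adjustment over all genes and a threshold of 0.1. Log2 CPM of single genes, and the shares, were also compared by a two-sided exact permutation test. CPM came from TMM-scaled library sizes, and exon lengths, overlaps and coordinates from the GENCODE annotation of GRCm38, matched by symbol. Promoters came from RefSeq, of which the 250 bases before the start are printed and 50 more after it were searched. At and below 3 counts a level was treated as not detectable. Alternatives were DESeq2 1.42.0, limma-voom (limma 3.58.1), edgeR's exact test, other scalings and filters, other detection rules and lengths, and omission of each library. Omission of both libraries high in choroid plexus genes was chosen after seeing the data. The fit was also run on simulated data. The changes planted there were larger than that of any receptor tested, so the simulation does not cover changes of the receptors' size.

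The receptors and the coregulator, chaperone, target and marker lists were chosen with earlier results of these data known. Named with full statistics were steroid, estrogen and estrogen-related receptors, the 10 receptors highest per kilobase, the 5 with the smallest p, those whose groups did not overlap and, of each list, genes with unadjusted p under 0.05 or else the smallest p, and the 2 genes with the highest CPM. Of the list genes this rule names, 3 are not reported here.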

Additional observations from a re-analysis of the deposited data

How the results depend on the processing

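No receptor, coregulator, chaperone or target gene passed an adjusted p of 0.1 in any of the 15 alternatives run. Over all genes the count past that threshold, 0 in the reported fit, was 19 with no filter beyond 1 count, 3 with DESeq2, 2 with edgeR's exact test, 0 to 1 when 1 library was left out, and 15 without both libraries high in choroid plexus genes, an alternative chosen after seeing the data that leaves 2 libraries in each group. The receptors with an unadjusted p under 0.05 numbered 0 to 2 with 1 library left out, and 2 without the libraries high in choroid plexus genes. The median log2 fold change of the receptors ranged from -0.096 to -0.0061 with 1 library left out, the largest shift being without vehicle 1, and was 0.013 without the libraries high in choroid plexus genes. The cause of these shifts was not tested.

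The log2 fold changes of Rxrg, Nr2f6, Rara, Nr3c2, Nr3c1, Esrrg and Nr4a2 kept their direction in each alternative that could be computed. Those near 0 did not when 1 library was left out. They ranged from -0.082 to 0.060 for Esrra, -0.43 to 0.11 for Pgr, -0.10 to 0.027 for Thra, -0.11 to 0.13 for Nr2f1, -0.11 to 0.0058 for Rxrb, -0.079 to 0.23 for Nr1h2, -0.15 to 0.072 for Nr2f2, -0.045 to 0.21 for Nr2e1, -0.13 to 0.22 for Nr4a3 and -0.015 to 0.15 for Nr2c2. Fgf15 ranged from -1.33 to 1.003. Nr3c2 kept its direction but ranged from -0.63 to -0.13, as did Hspa8 from 0.044 to 0.70, Nr3c1 from 0.0093 to 0.23, Nr4a2 from -0.21 to -0.0095, Rara from -0.31 to -0.16, Ppargc1a from -0.39 to -0.18, Bcl11b from -0.19 to -0.054, Sgk1 from -0.33 to -0.11 and Scd1 from -0.34 to -0.14. Without the libraries high in choroid plexus genes, Esrra was at 0.13 and Nr2f2 at 0.16.

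Detection in every library held for 29 receptors at a minimum of 10 counts as well, for 32 at 1 count, and for 34 where 1 library over 3 counts sufficed. Of the 10 receptors highest per kilobase, 9 to 10 were shared with the order by longest transcript, by CPM, or with 1 library left out. BPA 3 had the smallest total and set the floor of 0.875 CPM for single libraries. No paired analysis was possible because the labels give no replicate numbers shared between the groups.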
